A study of Mus musculus with 2 samples.

Results

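miR-148a, miR-148b, miR-152, miR-101a and miR-101b are microRNAs whose published targets include enzymes that write repressive chromatin marks. Their arms were followed in mouse bone marrow stem and progenitor cells with wild-type or floxed Tif1b alleles. All probes designed for a mature arm of these 5 miRNAs (mmu-miR-148a-3p, mmu-miR-148b-3p, mmu-miR-152-3p, mmu-miR-101a-3p, mmu-miR-101b-3p and their 5p partners) were taken, whatever their signal: 10 arms (5 3p arms and 5 5p arms) on 24 probes, out of 1247 mouse miRNAs on 3105 probes. The cells were c-Kit+ Sca1+ Lineage- cells, a fraction that holds the hematopoietic stem cells, sorted from adult C57/BL6 bone marrow. The WT array held RNA of cells of genotype CreERT, Tif1bw/w and the KO array RNA of cells of genotype CreERT, Tif1bf/f, so both carry the inducible Cre and the groups differ in the floxed Tif1b alleles. There was 1 array for each genotype, the age of the mice, the induction of Cre and any pooling are not given in the sources used here, and the array has no probe for Tif1b, so its deletion was not checked.

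A miRNA guides the Argonaute complex to messenger RNAs that pair with its seed, bases 2 to 8 from the 5′ end, and lowers their stability and translation. miR-148a, miR-148b and miR-152 form a family with a common seed and are known to target Dnmt1, the maintenance DNA methyltransferase that hematopoietic stem cells need for self-renewal. miR-101 is known to target Ezh2, the histone H3 lysine 27 methyltransferase of the Polycomb repressive complex. Tif1b (Trim28, KAP1) is a corepressor that recruits histone methylation and helps to maintain DNA methylation at retroelements and imprinted loci. Neither Dnmt1 nor Ezh2 RNA is measured by this array.

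The mature 3p sequences show which arms can share targets and which can share a probe. They are from RefSeq (GRCm38.p6), with the seed in capitals:
miR-148a-3p: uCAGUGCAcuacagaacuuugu
miR-148b-3p: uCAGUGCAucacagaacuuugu
miR-152-3p: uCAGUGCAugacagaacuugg
miR-101a-3p: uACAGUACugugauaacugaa
miR-101b-3p: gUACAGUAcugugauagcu

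The first 3 share the seed CAGUGCA, and no other mature mouse miRNA in the RefSeq table does. miR-101b-3p is annotated from 1 base further upstream: its bases 2 to 16 are the first 15 bases of miR-101a-3p, so the seeds read by position differ while the underlying stretch is the same. The genes lie apart. Mir148a is on chromosome 6, with the 3p arm at chr6:51269829-51269850 (minus strand), within the predicted gene Gm38821. The 3p arm of Mir148b lies at chr15:103285185-103285206 (plus strand) within Copz1, and that of Mir152 at chr11:96850439-96850459 (plus strand) within Copz2, so these miRNAs sit in paralogous coatomer genes. For Mir101a the 3p arm is at chr4:101346957-101346977 (minus strand) within the noncoding gene E130102H24Rik, and for Mir101b at chr19:29135338-29135356 (plus strand) within Rcl1.

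Each 3p arm has a pair of probes, complementary to it and differing in length by 1 base. The longer probe of each of the 4 arms with any spot well above background is shown, because cross-pairing bears on their values, and capitals mark the bases that do not pair with the nearest relative, miR-148b for miR-148a, miR-101b for miR-101a and the reverse:
miR-148a-3p probe: acaaagttctgtAGtgcact
miR-148b-3p probe: acaaagttctgtGAtgcac
miR-101a-3p probe: ttcagTtatcacagtactgta
miR-101b-3p probe: ttcagCtatcacagtact

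Both probes of miR-148a-3p differ from miR-148b at 2 bases and from miR-152 at 4. The probes of miR-101a-3p and miR-101b-3p differ from the other copy at 1 base, and those of miR-101b-3p pair with 3 bases past the 3′ end that RefSeq annotates. Pairing of a probe with the other copy was not tested, so signal of either miR-101 copy may include the other.

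Of the whole series, the KO array was the dimmer. For the 113 probes that both arrays measured, its 75th percentile of signal was 0.437 of that on the WT array. A probe counted as measured when more than 50% of its spots, outliers aside, were flagged well above background by the scanner software; an arm counted as measured when any of its probes was. By this rule the WT array measured 100 miRNAs and the KO array 78. Of 9 markers of stem and progenitor cells, 6 were measured on both arrays, and miR-125a-5p, miR-125b-5p and miR-99b-5p on neither. The scaled KO minus WT differences of these 6, on the log2 scale, were all above 0: 0.03 for miR-126-3p, 0.57 for miR-10a-5p, 0.95 for miR-130a-3p, 1.16 for miR-196b-5p, 1.72 for miR-155-5p and 2.25 for miR-193b-3p. Without scaling, miR-155-5p (0.52) and miR-193b-3p (1.06) remained above 0 and the other 4 were between -1.16 and -0.03. None of the 2 lymphocyte, 2 erythroid, 4 muscle and stroma, 1 liver, 2 brain and 2 epithelial markers was measured on either array, with mean signals of at most 12.2 on WT and 6.56 on KO. The granulocyte and monocyte miRNA miR-223-3p had a signal of 3726 on WT and 63.6 on KO at its highest probe, a scaled difference of -4.68 on the log2 scale, while its 5p arm was measured on neither. The blood cell miRNA miR-142-3p was at -1.06 on the same scale, and miR-142-5p was measured on WT only. With scaling, miR-223-3p and miR-142-3p were thus below 0 and the 6 stem and progenitor markers above it. Relative to the median of all miRNAs measured on both arrays, 0.30, miR-126-3p was below as well, at -0.27. The part of the cell makeup of the sorts in the results below was not tested.

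miR-148a-3p and miR-101b-3p were the arms measured on the WT array. These were 2 of 10 arms, against 8.02% of all miRNAs, and none of the 10 on the KO array, against 6.26% of all miRNAs. Of the spots used, 54 of 374 were well above background on the WT array and 11 of 379 on the KO array. All 11 on the KO array belonged to miR-148a-3p. For all mouse miRNAs, with outlier spots counted, 3308 of 49880 spots were well above background on WT and 2510 of 49880 on KO. Being measured on WT only was common on these arrays, at 28% of the miRNAs measured on WT, so the count of arms by itself says little about genotype.

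**Figure D1:**
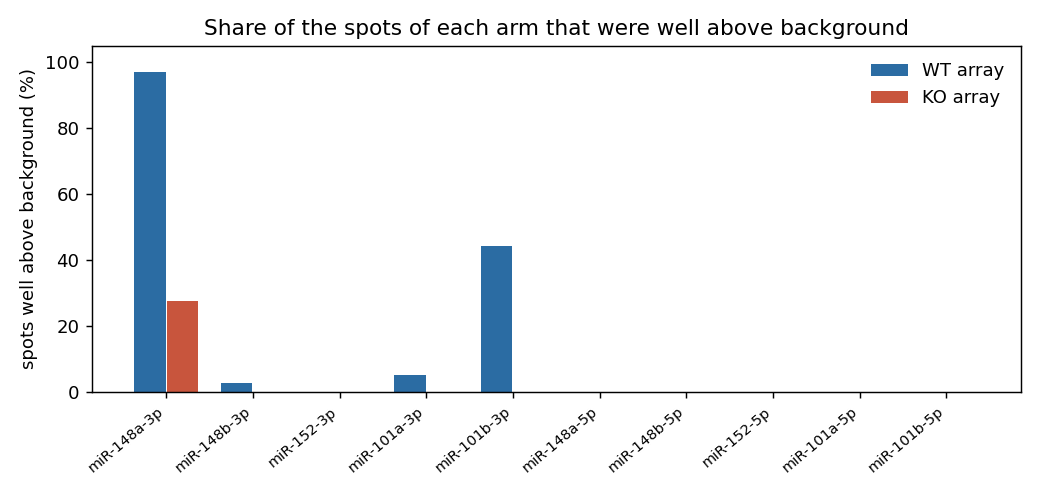
Percentage of spots of each arm (x axis) that were flagged well above background, WT array in blue and KO array in red, outlier spots left out. miR-148a-3p has 35 of 36 such spots on WT and 11 of 40 on KO, miR-101b-3p has 16 of 36 and 0 of 39, and the 6 arms with no bar have 0 on both arrays.

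miR-148a-3p was lower on the KO array at both probes. Its 20-base probe had spot signals of -0.357 to 197 with a median of 110 on the WT array, and of -6.05 to 38.4 with a median of 19.95 on the KO array. The mean was 98.6 ± 47.1 (SD over 20 spots) on WT and 20.5 ± 12.7 (SD over 20 spots) on KO. Signals here are intensities on a linear scale, and the SD over spots is technical and says nothing about mice. The ranges overlap at their low ends; 19 of 20 spots on WT and 9 of 20 on KO were well above background. At the 19-base probe the spots ran from 44.3 to 89.4 with a median of 64.7 on WT, and from 6.91 to 23.8 with a median of 15.7 on KO. Here the arrays did not overlap, also with the 4 WT outlier spots, of which the lowest was at 23.9 and the highest at 93.5. Without these spots the probe had means of 64.9 ± 12.1 (SD over 16 spots) and 15.2 ± 4.81 (SD over 20 spots).

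On the KO array miR-148a-3p was dim but not at the level of the negative controls. The 7 negative control probes had mean signals of 5.05 to 9.89 on that array, and the 95th percentile of their spots was 13.7. Of the KO spots, 13 of 20 at the 19-base probe and 14 of 20 at the 20-base probe exceeded that percentile. The 20-base probe, at 45.0% of spots well above background, lacked 2 spots to count as measured, and the 19-base probe, at 10.0%, lacked 9.

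Scaled by the 75th percentile, miR-148a-3p was at least 1.66-fold higher on the WT array. This is the median of its probes, at least 1.35-fold for the 19-base and at least 2.05-fold for the 20-base probe, and it sets the WT signal against the lowest measured signal on the KO array, 21.1. Had the WT signals only been dimmed by the scaling ratio, the probes would have read 28.4 and 43.1 on the KO array, against the 15.2 and 20.5 found. Their own values, without regard to the call, give 1.87-fold and 2.10-fold. At the positions that carry the probe on both arrays, 16 of 16 for the 19-base and 18 of 20 for the 20-base probe were lower on KO after scaling. With 1 array per genotype there is no test, and less miR-148a-3p per cell cannot be told apart from fewer cells that hold it. With limma's normexp background correction, run with an offset of 50, the bound was under 1 and no fold is given. The part of the offset in this was not tested. Without scaling the bound was 3.79-fold.

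Among the 28 miRNAs measured on WT only, the bound of miR-148a-3p was second to that of miR-27b-3p (2.42-fold). Of these 28, 1 had a bound of at least 2-fold (3.57%) and 6 (21.4%) of at least 1-fold. On simulated arrays in which many miRNAs changed, this scaling shifted the differences of unchanged miRNAs downward and gave some of them bounds above 1. The simulated arrays lacked the fall of signal toward the last rows described below, so the size of these false bounds sets no limit here. The part of the scaling in the bound of miR-148a-3p was not tested. Of the 98 probes with a WT signal of at least 64.9, 91 were measured on KO, and of the 87 with at least 98.6, 83 were. With a WT signal of at least 30.8 there were 131, of which 108 were measured on KO and 23 were not. These counts include far brighter probes, so they do not give the rate of loss near the signals of miR-148a-3p.

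**Figure D2:**
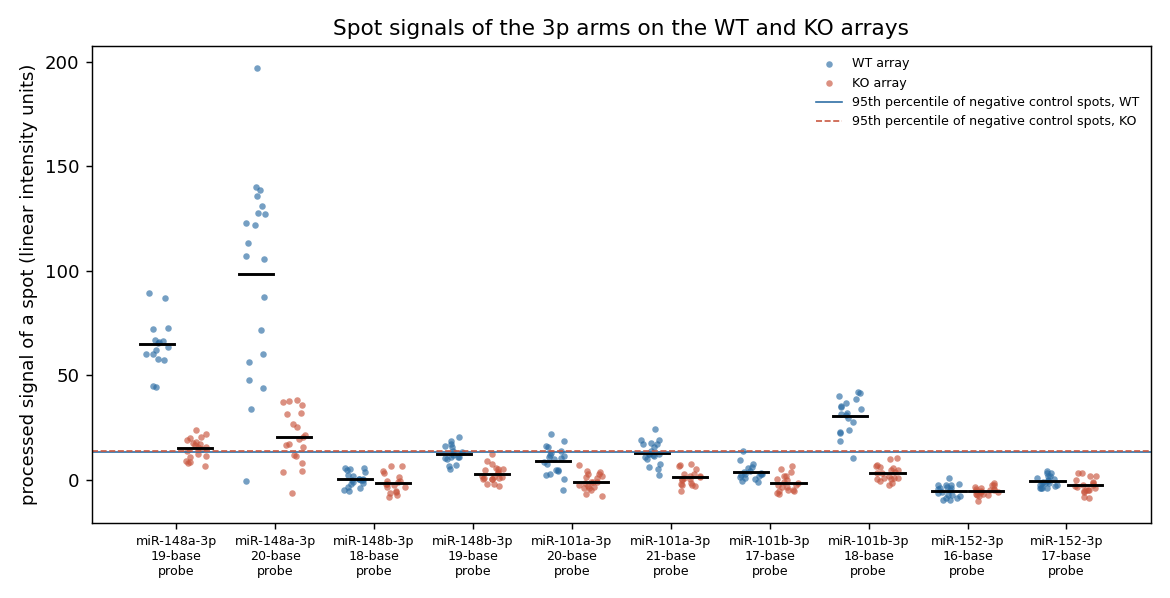
Processed signal of each spot (linear intensity units) for both probes of the 3p arms, WT array in blue and KO array in red, with black bars for the means, outlier spots left out. The horizontal lines at 13.3 (WT) and 13.7 (KO) are the 95th percentiles of the negative control spots, and only miR-148a-3p on both arrays and the 18-base probe of miR-101b-3p on WT have means above them.

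Whether miR-148a-3p counted as measured on KO depended on the rows used. Signals fell toward the last rows of both arrays: for probes measured on both, the median spot in rows above 320 (of 384) had 46.2% of its own probe's mean on WT and 57.3% on KO. The 20-base probe of miR-148a-3p has 5 of its 20 spots there, with a mean of 41.8 on WT and 8.37 on KO, against 118 and 24.6 in the other rows. None of those 5 was well above background on KO, while 9 of the 15 in the other rows were. Leaving rows above 320 out, an alternative chosen after seeing the data, miR-148a-3p counted as measured on both arrays and was 1.99-fold higher on WT.

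**Figure D3:**
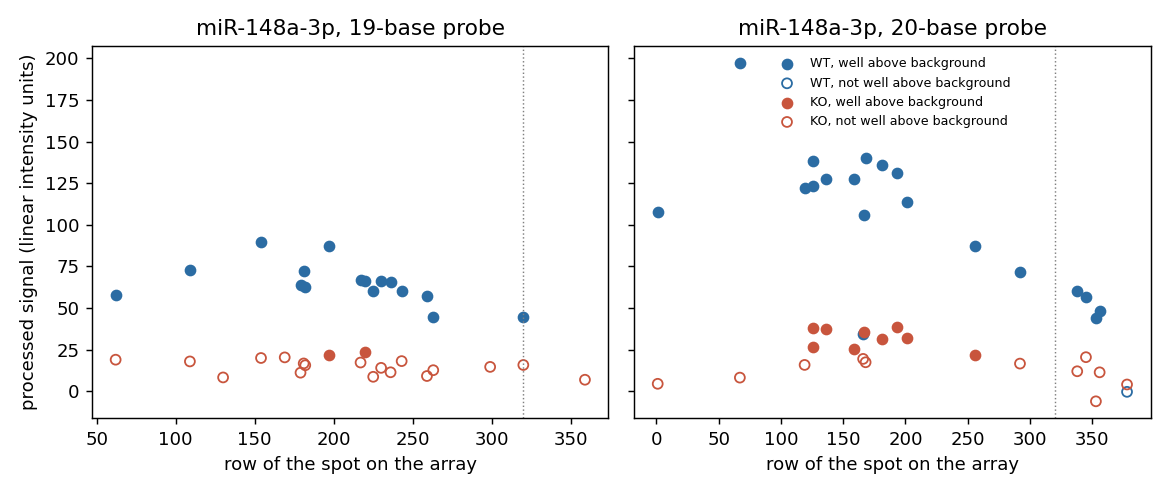
Processed signal (linear intensity units) of the spots of both miR-148a-3p probes against their row on the array, WT in blue and KO in red; filled circles are well above background, open ones are not, and the dotted line marks row 320. On the 20-base probe all 9 filled KO spots lie below row 320, and the only open WT spot lies at -0.357, in a row above 320.

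The software's own summary, the total gene signal, counted miR-148a-3p as detected on both arrays. It was 46.2 (error 3.92) on WT and 10.1 (error 1.91) on KO, errors being those the software gives. After scaling by the 75th percentile over miRNAs detected on both arrays, WT was 1.44-fold higher. The direction was therefore the same as with the probe means, at a smaller size. This fold is under the bound of 1.66 from the probe means, so that bound does not hold for total gene signal. The deposited value table holds the same total gene signals and gives 1.44-fold as well.

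miR-101b-3p was measured at its 18-base probe only, and only on the WT array. There its spots ran from 10.5 to 42.3 with a median of 31.8, and 16 of 18 were well above background. On the KO array the spots ran from -2.42 to 10.3 with a median of 3.31, and 0 of 20 were. Among the spots used the arrays did not overlap, and all 18 paired positions were lower on KO, with and without scaling. The software flagged 2 further WT spots as outliers, at 3.02 and 5.73, which lie within the KO range; at the position of the first the KO spot, at 10.3, was higher than the WT spot. The means were 30.8 ± 8.48 (SD over 18 spots) and 3.38 ± 3.58 (SD over 20 spots), the latter below the mean of every negative control probe. By the bound rule no fold can be given: dimmed by the scaling ratio alone, the WT signal would read 13.5 on the KO array, under the lowest measured KO signal of 21.1. Without scaling the bound was 1.46-fold, and by total gene signal, at 8.71 on WT and the floor of 0.1 on KO, it was 1.30-fold. The 17-base probe, with means of 3.85 on WT and -1.38 on KO, was measured on neither array.

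miR-101a-3p, the copy that differs from miR-101b-3p at 1 base under the probes, was measured on neither array. Its 21-base probe had a mean of 13.1 ± 5.39 (SD over 19 spots) on WT and 1.27 ± 3.58 (SD over 19 spots) on KO, and its 20-base probe 9.26 ± 6.58 and -0.727 ± 3.85 (SD over 20 spots each). On WT 13 of 39 spots exceeded the 95th percentile of the negative controls, and on KO 0 of 39 did. The total gene signal of miR-101a-3p counted as detected on WT at 3.69 and was at the floor of 0.1 on KO. That is a detection by the software's rule and not by the rule on spots, as 2 of 39 spots on WT were well above background. Both WT probe means lay above the 5.07 to 8.86 of the negative control probes.

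miR-148b-3p, which shares the seed of miR-148a-3p, was measured on neither array. At its 19-base probe the mean was 12.6 ± 4.31 (SD over 16 spots) on WT and 2.95 ± 3.86 (SD over 20 spots) on KO, with 1 of 16 and 0 of 20 spots well above background. The 18-base probe had 0.448 on WT and -1.35 on KO. By total gene signal miR-148b-3p was detected on WT at 3.55 and at the floor of 0.1 on KO. miR-148b-3p and miR-101a-3p therefore have no value above the detection limit on both arrays, and no fold is given for either.

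miR-152-3p, the third holder of the seed, and the 5 5p arms gave no signal above background. The 16 probes of these 6 arms had means from -7.18 to 0.364 on WT and from -9.99 to 0.856 on KO. Not a spot of theirs was well above background on either array, of 227 used on WT and 223 on KO, and 0 exceeded the 95th percentile of the negative controls. miR-152-3p itself was at -5.16 and -0.600 on WT and at -5.18 and -2.56 on KO for its probes of 16 and 17 bases. Of the 3 arms with the seed CAGUGCA, miR-148a-3p was thus the one measured by the rule on spots, and the total gene signal added miR-148b-3p on WT.

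Other miRNAs with published targets among epigenetic regulators give the setting. Of 16 on a list of such miRNAs, 5 were measured on both arrays, miR-29c-3p and miR-22-3p on WT only and 9 on neither. The 5 had a median KO minus WT difference of -0.25 on the log2 scale, against 0.30 for all 72 miRNAs measured on both arrays. At least 2-fold lower on KO were 2 of the 5, against 13.9% of the 72, and 0 of the 5 were at least 2-fold higher, also against 13.9%. The 2 lower ones were miR-29b-3p, with a difference of -1.48 and a spot SD of 0.22, and miR-29a-3p, with -1.07 and a spot SD of 1.20. Both belong to the miR-29 family and are known to target the de novo methyltransferases Dnmt3a and Dnmt3b. miR-29c-3p, of the same family, had 23.6 on WT and 6.41 on KO, with no fold.

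Among Ezh2-targeting miRNAs other than miR-101, miR-26a-5p was at 0.14 (spot SD 0.88) and miR-26b-5p at -0.25 (spot SD 0.69), both within 2-fold. miR-138-5p, miR-124-3p and miR-217-5p were measured on neither array. Among those known to target Dnmt1, miR-140-5p was at -0.14 (spot SD 0.94), and miR-185-5p and miR-342-3p were measured on neither. miR-22-3p, which targets Tet2, was at 47.8 on WT and 15.9 on KO at its brightest probe, with no fold. Without scaling the 5 measured on both arrays lay between -2.67 and -1.05. No arm of miR-148, miR-152 or miR-101 was measured on both arrays, so none has a difference to set beside these, only the bound of miR-148a-3p.

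**Figure D4:**
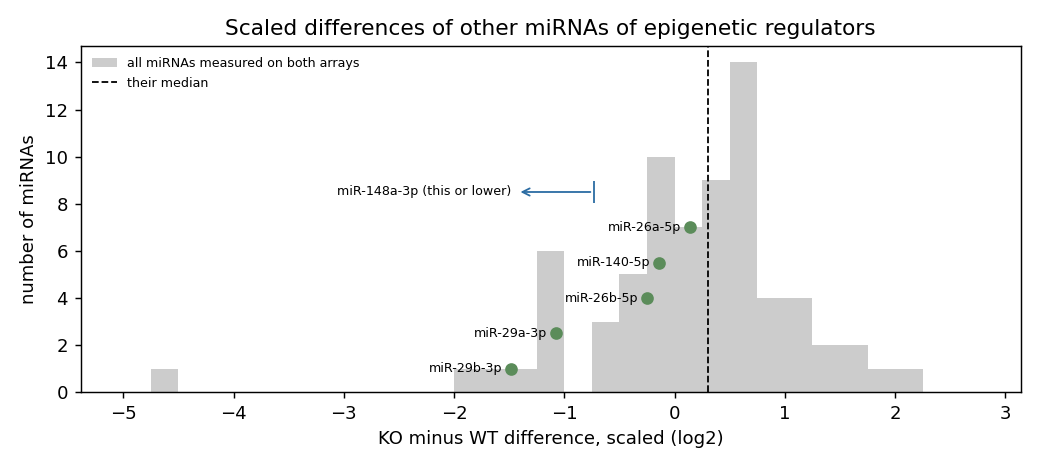
Histogram of the scaled KO minus WT difference (log2) of the 72 miRNAs measured on both arrays, with their median of 0.30 as a dashed line; green points are the 5 measured miRNAs of the epigenetic regulator list and the blue arrow the bound of miR-148a-3p, whose heights carry no value. The bound, WT at least 1.66-fold higher, lies left of the median and of 3 of the 5 points.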

How the data were processed

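Each of the 2 samples was hybridised to 1 Agilent 1-colour mouse miRNA array, with 100 ng of RNA labelled with Cyanine 3. The submitters' processing notes name Agilent Feature Extraction 10.7.3. Spot intensity was deposited on a linear scale; per the file headers, spatial detrending was on and the separate background correction off. Probe values are means of the processed signal without outlier spots, divided by the 75th percentile over probes measured on both arrays. Differences are KO minus WT on the log2 scale, as the median over probes. Spot SDs are of the log2 ratio over positions. Where only WT was measured, the WT signal was divided by the higher of the lowest measured KO signal and the probe's own KO signal, both scaled, and no fold is given under 1. The array names 26 of the 27 markers listed, with miR-126a-3p as miR-126-3p; the other was not analysed here. All 10 arms matched a RefSeq mature sequence, and gene overlaps are from RefSeq GRCm38.p6.

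Members and lists were chosen with earlier results of these data known. All arms are reported whatever their values, and listed miRNAs measured on either array are given with values or with the array that measured them. A rule to name the miRNAs with the nearest difference found no arm measured on both arrays to apply to. With 1 array per genotype the precision between animals is unknown and no p-value is given. The procedure was tested on simulated arrays with known changes. The first simulation, in which many miRNAs changed, failed: the scaling shifted unchanged miRNAs by more than the tolerance set, and several measured on WT only had a bound above 1 without a simulated decrease. A second simulation with fewer changes, added after that failure, passed. It was judged relative to the shift and only on changed miRNAs measured on both arrays. Its pass therefore says nothing about bounds such as that of miR-148a-3p. The procedure was not altered, so the limit shown by the first simulation applies to the differences and bounds given here. The 15 alternatives set at the start covered scaling, background correction (normexp, offset 50), summaries, filters and outliers, and 2 were added after seeing the data. Software was R 4.3.3 with limma 3.58.1, and Python 3.11.15 with pandas 2.3.3 and numpy 2.4.6.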

Additional observations from a re-analysis of the deposited data

How the results depend on the processing

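No paired analysis was possible because there is only 1 array of each genotype. A fold or count is given here where it changed by over 1.5 times and a median where it shifted by over 0.1 (log2); these limits replaced looser ones after the data had been seen. The fold of miR-148a-3p, WT over KO, was at least 1.66 as reported. It was at least 3.54 with the 75th percentile over all probes and at least 3.79 without scaling, and between 1.37 and 2.08 under the other alternatives that gave a value; normexp gave none. The number of arms measured on WT (2 as reported) was 4 by total gene signal or in the deposited value table, which add miR-101a-3p and miR-148b-3p, and 1 with the stricter filter (more than 90% of spots), which drops miR-101b-3p. The number measured on KO (0 as reported) was 1, miR-148a-3p, by total gene signal, in the value table, with the looser filter (at least 25% of spots), without rows above 320 and with spots called above the negative controls.

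For all miRNAs measured on both arrays, the median difference (0.30 as reported) turned to -0.79 with the 75th percentile over all probes and -0.89 without scaling; it was 0.46 with normexp, 0.58 by total gene signal or the value table, 0.89 with no filter and, by construction, 0 relative to the median miRNA. The number at least 2-fold higher on KO (10 as reported) was 1 over all probes, 1 without scaling, 29 by total gene signal or the value table, 227 with no filter, 4 with the stricter one and 6 relative to the median miRNA. The number at least 2-fold lower (10 as reported) was 31 over all probes, 32 without scaling, 1 with normexp, 5 by total gene signal or the value table and 53 with no filter. The cause was not tested. Signal over background limits what can be said of 9 of the 10 arms: the KO array gave no fold for miR-101b-3p, and neither array measured the rest.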

Other observations

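miR-101c, a mouse entry on chromosome 9 whose 19 bases are bases 2 to 20 of miR-101a-3p, was not among the arms followed but its probes also match miR-101a without a mismatch. They gave no spot well above background on either array, with a highest probe mean of 2.59 on WT and -1.47 on KO. miR-144-3p, an erythroid miRNA that shares the first 6 seed bases with miR-101a-3p, had a highest mean of 0.234 on WT and -2.01 on KO. miR-1960, which shares the first 6 seed bases with miR-148a-3p, was at -3.15 and -3.79.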
